A study of Mus musculus with 11 samples.

Results

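The genes described here are the 3 opioid peptide precursors Pdyn, Penk and Pnoc and the 4 opioid receptors Oprm1, Oprk1, Oprd1 and Oprl1, taken by symbol from a table of 14864 genes, which holds all 7. The measurements are RNA-seq of hypothalamus from 11 mice aged P60-70 (postnatal days), 5 of them wild type (WT, 2 females and 3 males) and 6 heterozygous (Het, 3 females and 3 males) at Myt1l. The design text counts the libraries as biological replicates. MYT1L is a neuronal transcription factor of the zinc finger class, and the study asks what its loss alters in this tissue. The labels name no allele, strain, Cre driver or treatment, and the pieces hold all cell types of the dissection.

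Opioid peptides are cut from larger precursor proteins inside secretory vesicles. Pdyn gives the dynorphins and neoendorphins, Penk the enkephalins, and Pnoc the peptide nociceptin. Their receptors couple to inhibitory G proteins, which lower cyclic AMP, open inwardly rectifying potassium channels and close presynaptic calcium channels. Dynorphins act mainly on the kappa receptor (Oprk1), enkephalins on the delta and mu receptors (Oprd1, Oprm1), and nociceptin on its own receptor (Oprl1). In the hypothalamus, dynorphin is made in vasopressin neurons and orexin neurons, among others. Outside it, in the striatum, medium spiny neurons of the D1 type are rich in Pdyn and those of the D2 type in Penk.

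The precursors share a short coding element, the codons for the opioid core tyrosine-glycine-glycine-phenylalanine, which nociceptin carries with phenylalanine in the first place. The sequences are shown because this element, and how often it occurs, is what makes each transcript a source of opioid peptide. In-frame matches were read from the GENCODE transcripts of these 3 genes in the mm10 build, with every codon that encodes the residue allowed. The Pdyn coding sequence held 3 cores, all followed by a leucine codon. That of Penk held 7, of which 6 were followed by a methionine and 1 by a leucine codon, and that of Pnoc held 1, followed by a threonine codon. All 11 cores came directly after 2 codons for basic residues, the kind of site at which prohormone convertases cut. All lie on the minus strand, in exon 4 of 4 for Pdyn, exon 2 of 2 for Penk and exon 3 of 4 for Pnoc. The 3 Pdyn cores start the peptides alpha-neoendorphin, dynorphin A and dynorphin B. Below, capitals mark the 12 bases of the core, which lies at chr2:129688241-129688252, chr2:129688133-129688144 and chr2:129688076-129688087 in Pdyn, at chr4:4134337-4134348 and chr4:4133944-4133955 in the Penk examples and at chr14:65404881-65404892 in Pnoc.
Pdyn core 1: aaacgcTATGGCGGCTTTttgcgcaaatac
Pdyn core 2: aaacgcTATGGGGGCTTCctgcggcgcatt
Pdyn core 3: aagcgcTATGGTGGTTTCctgcggcgtcag
Penk core 1: aagaagTACGGAGGCTTCatgaaacggtac
Penk core 6: aagaggTATGGGGGCTTCctgaagcgcttt
Pnoc core 1: aaaaggTTTGGGGGCTTCaccggggcccgg

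Values are CPM, scaled counts after the correction the authors applied. The upper quartile of the log2 values was 5.473 in every library. Corrected counts totalled 23701175 to 24941704 per library in WT and 22921048 to 23799167 in Het. In Het replicate 5, with the lowest total, 1 corrected count stood for 0.04192 CPM. In WT replicate 3, with the highest total, it stood for 0.04217 CPM, so summed CPM differed between libraries. Myt1l did not separate the groups. It was at 51.1 to 89.3 CPM in the libraries labelled WT and at 58.7 to 130.0 CPM in those labelled Het, with the library labelled Het replicate 9 the highest and the library labelled WT replicate 11 the lowest of all. These libraries are called the 2 in doubt, and groups are as labelled throughout. All 12 hypothalamic marker genes looked for, among them Avp, Oxt, Hcrt, Pmch, Sim1 and Otp, were in the table and past the filter on low values, a mean of at least 1 CPM over all libraries.

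Transcript levels of the 7 genes spanned several orders of magnitude. Compared per length, as CPM per kilobase of annotated exon, Penk stood at 688 ± 79.0 in WT (SD, n = 5), which placed its mean over all libraries at rank 55 of 13179 genes. Pdyn followed with 37.1 ± 5.35, Pnoc with 33.1 ± 1.01 and the nociceptin receptor gene Oprl1 with 17.9 ± 0.874 CPM per kilobase. The WT ranges of Pdyn (32.4 to 46.0) and Pnoc (32.3 to 34.8) overlapped, so their order is not resolved in WT. In Het they did not overlap, at 38.1 to 59.9 for Pdyn and 28.3 to 30.4 for Pnoc. The kappa receptor gene Oprk1 was at 1.90 ± 0.454, the mu receptor gene Oprm1 at 0.132 ± 0.0213 and the delta receptor gene Oprd1 at 0.0647 ± 0.0290 CPM per kilobase in WT. The last of these also overlapped, with 0.114 to 0.162 for Oprm1 and 0.0415 to 0.115 for Oprd1. Oprl1 was thus the most abundant of the 4 receptor transcripts, and all its WT values lay above all those of Oprk1, which were 1.58 to 2.68. Exon lengths merge every annotated isoform, 8037 bases for Oprm1 and 9151 for Oprk1, which lowers a value per length where most reads come from a shorter isoform.

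Pdyn was higher in the libraries labelled Het and was the only member to pass the test between genotypes. Pdyn (ENSMUSG00000027400, mm10 chromosome 2 from 129686565 to 129699844) was at 99.0, 93.5, 101, 110.3 and 133 CPM in the libraries labelled WT replicates 4, 6, 3, 7 and 11. In the 6 libraries labelled Het the lowest value was 109.9, the median 140.4 and the highest 173 CPM. The groups overlapped: 3 Het libraries, replicates 4, 8 and 9, were above every WT library, and the other 3 lay between WT replicate 3 and WT replicate 11. The WT mean was 107 ± 15.4 CPM (SD, n = 5), and the Het mean 141 ± 28.2 CPM (SD, n = 6). The fitted difference was 0.41 on the scale of log2(CPM + 0.5), a fold of 1.33 (SE 0.10, 95% confidence interval 0.19 to 0.62, limma adjusted p = 0.0368). Over all genes tested, 453 of 13184 passed, or 3.44%, with 2.30% higher and 1.14% lower in Het. Of the 6 members past the filter 1 passed, so 1 of 6 stands against that background and says nothing about the members as a group.

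The size of the Pdyn difference held across animals while its call did not. The difference was 0.36 in females alone and 0.45 in males alone. It was also 0.49 within the libraries whose description starts with 14308 and 0.38 within those starting with 14309. These prefixes are identifiers in the labels whose meaning is not given; all 4 libraries of prefix 14308 are male, and WT replicate 4 has another prefix. None of these 4 smaller comparisons passed. Leaving out 1 library at a time kept the difference between 0.35 and 0.47. Among WT libraries, the call was lost on leaving out replicate 4 (limma adjusted p = 0.0609), replicate 6 (0.0954) or replicate 7 (0.0846). Among Het libraries it was lost on leaving out replicate 4 (limma adjusted p = 0.0626), replicate 8 (0.0962) or replicate 9 (0.0920). It held on leaving out any of the other 5. Without the 2 libraries in doubt it was 0.42 with a limma adjusted p of 0.0625. With 1 residual degree of freedom taken off for the correction made by the authors, the adjusted p was 0.0588.

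Penk had a difference of similar size that did not pass. Penk (ENSMUSG00000045573, chromosome 4 from 4133531 to 4138819) was at 1049.7, 971, 1087, 1265 and 1252 CPM in WT replicates 4, 6, 3, 7 and 11. In Het the lowest value was 1136, the median 1329.5 and the highest 2423 CPM. The highest was the library labelled Het replicate 9, the next was at 1464 CPM, and 4 Het libraries were above all WT libraries. The WT mean was 1125 ± 129 CPM (SD, n = 5), and the Het mean 1471 ± 483 CPM (SD, n = 6). Their fitted log2 difference was 0.37 (SE 0.13, 95% confidence interval 0.09 to 0.65, limma adjusted p = 0.117). Without Het replicate 9 the difference was 0.22, and without both libraries in doubt 0.24. The difference was 0.14 within prefix 14308 and 0.61 within prefix 14309, which holds that library. Without Het replicate 5 it was 0.49 and passed (limma adjusted p = 0.0446). A transcript on the opposite strand, A830012C17Rik, overlaps 233 bases of Penk exon. Strandedness of the counts is not given in the sources used.

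Pnoc went the other way, with the smallest spread of the 7 genes and no overlap between the groups. Pnoc (ENSMUSG00000045731, chromosome 14 from 65400673 to 65425472) was at 75.1, 71.0, 70.3, 69.6 and 70.7 CPM in WT replicates 4, 6, 3, 7 and 11. In Het the lowest value was 61.0, the median 62.7 and the highest 65.5 CPM. All 6 Het libraries were below all 5 WT libraries, a separation that 1.33% of all genes tested showed in this direction, 2.02% in the other and 3.35% in either. The WT mean was 71.4 ± 2.19 CPM (SD, n = 5), and the Het mean 63.0 ± 1.70 CPM (SD, n = 6). The fitted log2 difference was -0.18 (SE 0.054, 95% confidence interval -0.30 to -0.07), and its limma adjusted p of 0.0730 misses the threshold. The residual SD of Pnoc was 0.0330 on the log2 scale, against a median of 0.122 over the 3119 genes whose mean level was within 1 log2 unit of its own, and 0.160% of those genes had a smaller one. limma moves such a small variance towards that of genes of similar level, so the SE of 0.054 is larger than the spread of Pnoc alone would give. The difference was -0.19 in females alone, -0.18 in males alone, -0.16 within prefix 14308 and -0.18 within prefix 14309. It stayed between -0.19 and -0.17 whichever library was left out, and the adjusted p over all alternatives ran from 0.0535 to 0.631.

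**Figure D1:**
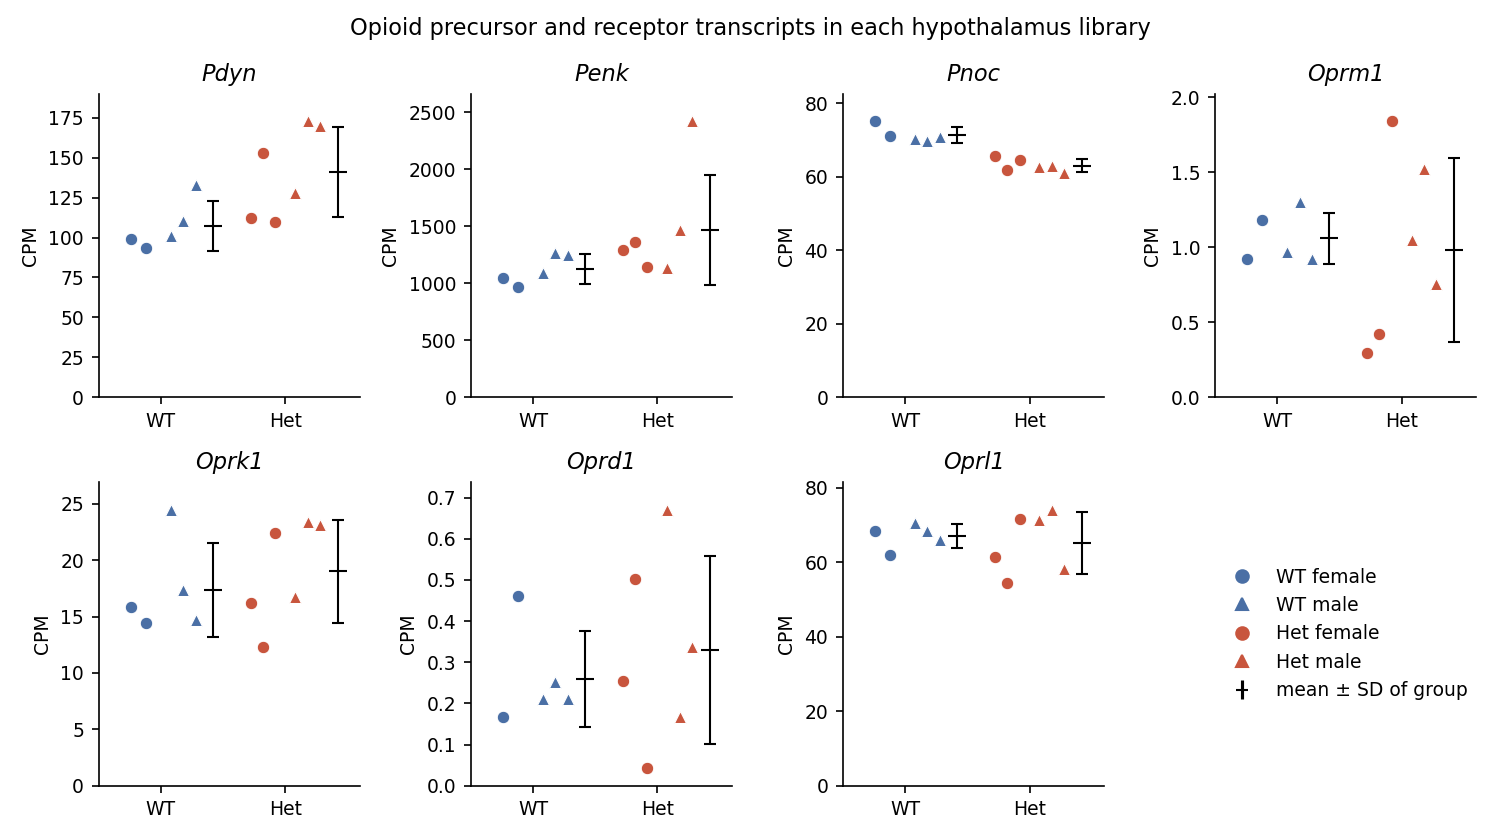
CPM of the 7 opioid genes in each of the 11 libraries, 1 panel per gene with its own axis starting at 0; circles are females, triangles males, and bars are the group mean ± SD (n = 5 WT, 6 Het). The 6 Het values of Pnoc, 61.0 to 65.5, all lie below the WT values, 69.6 to 75.1, while every other gene overlaps between the groups and Penk has 1 Het library at 2423.

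Among the receptors no difference between the genotypes passed the test. Oprl1 (ENSMUSG00000027584, chromosome 2 from 181715016 to 181720985), the nociceptin receptor, was at 68.4, 62.0, 70.6, 68.4 and 65.9 CPM in WT replicates 4, 6, 3, 7 and 11, and at 54.4 to 74.1 CPM with a median of 66.3 in Het. Het values lay on both sides of the WT range, 3 above and 3 below it. The log2 difference was -0.04 (SE 0.081, limma adjusted p = 0.813), and the 95% confidence interval of -0.21 to 0.13 bounds how far the means could lie apart. The direction is not resolved, since it turned to 0.0005 without Het replicate 4 and to 0.01 without Het replicate 9.

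Oprk1 (ENSMUSG00000025905, chromosome 1 from 5588466 to 5606131), which encodes the receptor for dynorphin, was at 15.9, 14.4, 24.5, 17.4 and 14.7 CPM in WT replicates 4, 6, 3, 7 and 11. In Het it was at 12.3 to 23.4 CPM with a median of 19.5. WT replicate 3 held the highest value of all 11. The log2 difference was 0.15 (SE 0.15, 95% confidence interval -0.18 to 0.48, limma adjusted p = 0.605). Leaving out WT replicate 3 gave 0.25, leaving out Het replicate 7 gave 0.06, and leaving out the pair in doubt gave 0.04. Within prefix 14308 it was -0.06 and within prefix 14309 it was 0.37. It did not pass in any of these. The receptor transcript therefore showed no resolved difference beside the Pdyn difference of 0.41, and whether the genes differ in their response to genotype was not tested.

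Oprm1 and Oprd1 were near the lower limit of the table. Oprm1 (ENSMUSG00000000766, chromosome 10 from 6758506 to 7038198), the target of morphine, was at 0.918, 1.18, 0.970, 1.30 and 0.924 CPM in WT replicates 4, 6, 3, 7 and 11. Het values ran from 0.296 to 1.84 CPM with a median of 0.902, so that the Het SD of 0.612 was larger than the WT SD of 0.171. These values rest on 7 to 44 corrected counts per library, and with a mean of 1.02 CPM the gene passed the filter by a small margin. The log2 difference was -0.15 with a 95% confidence interval of -0.75 to 0.45 (SE 0.28, limma adjusted p = 0.793), and its sign turned in males alone, at 0.02. Ipcef1 overlaps 96 bases of Oprm1 exon on the opposite strand. Oprd1 (ENSMUSG00000050511, chromosome 4 from 132110726 to 132144486) was the 1 member under the filter. It was at 0.167 to 0.462 CPM in WT and 0.0419 to 0.671 CPM in Het, on 1 to 16 corrected counts per library. Without the filter it was tested and had a log2 difference of 0.10 (limma adjusted p = 0.855).

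**Figure D2:**
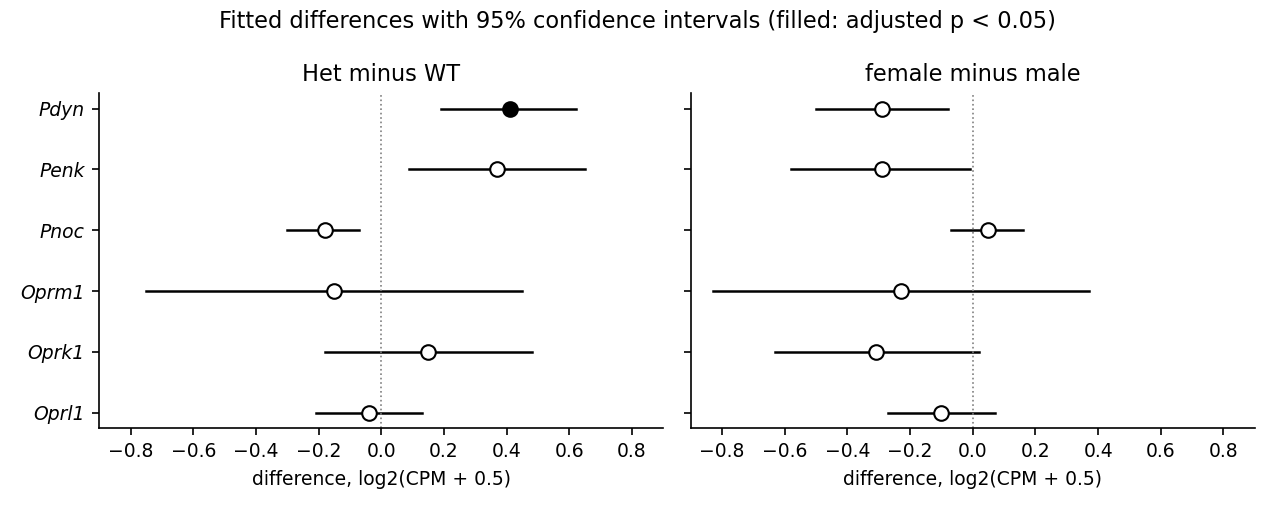
Fitted differences on the log2(CPM + 0.5) scale for the 6 members past the filter, Het minus WT on the left and female minus male on the right; points are estimates, lines 95% confidence intervals, and filled points passed an adjusted p of 0.05. Pdyn at 0.41 in the left panel is the 1 filled point, and the interval of Oprm1 is the widest.

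Between the sexes, Pdyn, Penk and Oprk1 were each at a lower level in females, and none passed the test. Pdyn was at 114 ± 23.4 CPM in the 5 females and 136 ± 30.0 CPM in the 6 males (mean ± SD), and its log2 difference was -0.29 (95% confidence interval -0.50 to -0.08, limma adjusted p = 0.265). The difference was -0.29 for Penk, -0.31 for Oprk1, -0.23 for Oprm1, -0.10 for Oprl1 and 0.05 for Pnoc, with limma adjusted p-values of 0.386 to 0.785. The Penk value was -0.14 without Het replicate 9 and -0.11 without both libraries in doubt, and the Pdyn value was then -0.20. At an unadjusted p under 0.05 there were 2 of the 6 members and 1609 of all 13184 genes tested. Without the libraries in doubt there were 0 members and 1841 of all genes. Over all genes, 26 of 13184 passed between the sexes, or 0.197%, with 0.0758% higher and 0.121% lower in females. In each sex the Het mean of Pdyn was above the WT mean, at 125 against 96.3 CPM in females and 157 against 115 CPM in males. The test of whether the genotype difference itself differed between the sexes called 0 of 13184 genes with limma (613 at an unadjusted p under 0.05), 0% of those tested, and none of the 6 members. For Pdyn this difference of differences was -0.09 with a 95% confidence interval of -0.54 to 0.36, which leaves room for effects as large as the genotype difference.

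Markers of the striatum, which lies near the hypothalamus, were also higher in Het. Over all genes tested, 2.30% rose and 1.14% fell. Of 18 striatal markers, all past the filter and none at 0, 8 rose, none fell and 10 did not pass, with a median log2 difference of 0.45 against -0.02 over all genes tested. Their summed level was 1057 to 1374 CPM in WT and 1281 to 1880.1 CPM in Het. Among markers of D1 neurons, Drd1, the D1 dopamine receptor, rose by 0.79 on the log2 scale (SE 0.12, limma adjusted p = 0.00501), while Eya1 had -0.41 and did not pass. The other D1 markers, Tac1 (0.06) and Isl1 (0.10), did not pass either, and the median of the D1 list was 0.08. Tac1 was at 436 to 528 CPM in WT and 448 to 568 CPM in Het, a large part of the summed level. Among markers of D2 neurons, Adora2a, an adenosine receptor, rose by 0.62 (limma adjusted p = 0.0468), a call lost in 8 of 11 runs with 1 library left out. Drd2, the D2 dopamine receptor, had 0.42 and did not pass. The other D2 markers, Gpr6 (0.39) and Sp9 (-0.10), did not pass either. The other 6 that rose were Foxp1, Scn4b, Gng7, Bcl11b, Rasd2 and Pde10a, by 0.55 to 1.08. Several of these genes are also expressed by hypothalamic neurons. In bulk tissue a different number of cells of a type and a different amount of RNA per cell cannot be told apart.

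With the mean of the 18 striatal markers as a covariate, the genotype difference was 0.01 for Pdyn, -0.21 for Penk and -0.16 for Pnoc. None of the 3 passed, and 3 of all genes tested did. The covariate itself differed by genotype, at 4.45 to 4.85 on the log2 scale in WT and 4.78 to 5.40 in Het, so the adjusted values hold what is left after a term that overlaps with genotype. Of its 18 genes, 8 were themselves called higher in Het, and the list was chosen with earlier results of these data known. Relations between animals of the same genotype and sex were computed on residuals from the group means. Over the 11 libraries, the residuals against the striatal mean had r 0.89 and rho 0.92 for Penk (exact permutation p = 0.00694 and 0.00463, adjusted over 21 relations 0.122 and 0.0972) and r 0.86 and rho 0.85 for Pdyn (exact permutation p = 0.0116 for both, adjusted 0.122 for both). Leaving out the 2 libraries farthest from the median gave r 0.81 and 0.82, and within prefix 14309 r was 0.93 and 0.95. All values of r within prefix 14309 rest on the 3 Het females alone. Each other library of that prefix is the only one of its genotype and sex, so its residual is 0. These values therefore say nothing about WT animals or males. No value was computed within prefix 14308, which holds 2 libraries of each genotype. Pnoc had r -0.36 and rho -0.15 with the striatal mean (exact permutation p = 0.243 and 0.701, adjusted 0.434 and 0.736), with r -0.31 without the 2 farthest and -0.81 within prefix 14309. Oprl1 had r -0.76 and rho -0.62 with it (exact permutation p = 0.0370 and 0.116, adjusted 0.259 and 0.347), with r -0.62 without the 2 farthest and -0.98 within prefix 14309. Pdyn and Penk had r 0.59 and rho 0.72 with each other (exact permutation p = 0.125 and 0.0648, adjusted 0.431 and 0.340), with r 0.68 without the 2 farthest, 0.84 without the 2 libraries in doubt and 0.77 within prefix 14309. None of the 21 relations, 15 between members and 6 with the striatal mean, passed after adjustment, where 432 arrangements allow 0.00231 at best.

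**Figure D3:**
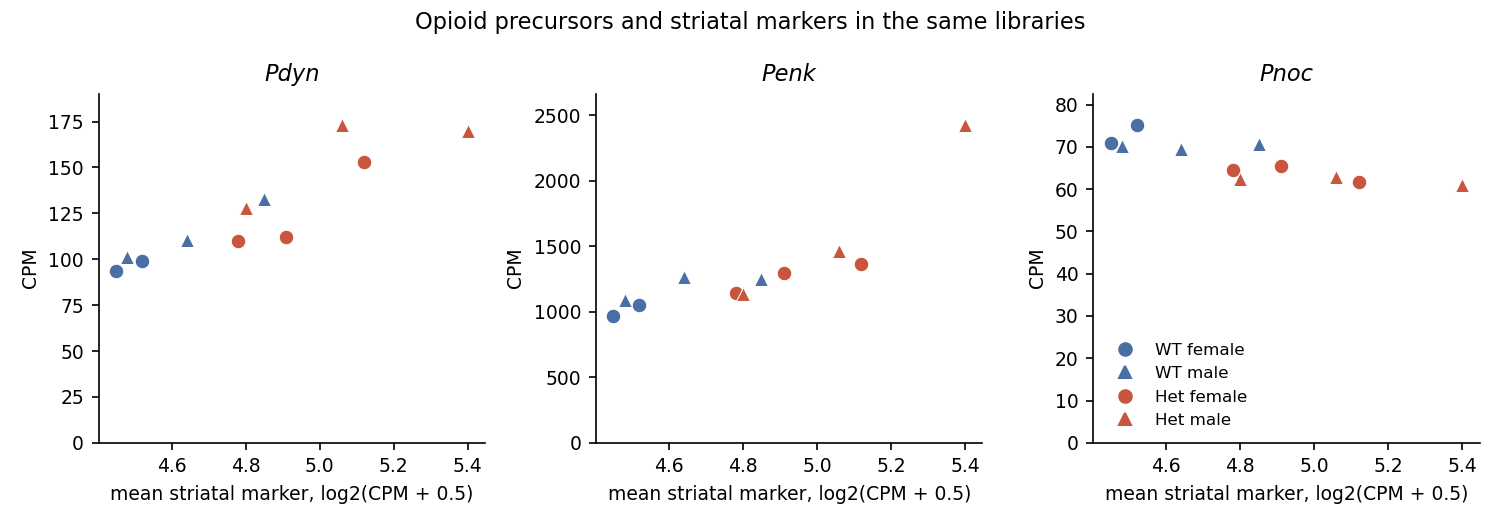
CPM of Pdyn, Penk and Pnoc against the mean of 18 striatal markers in the same library, on the log2(CPM + 0.5) scale; circles are females, triangles males, blue WT and red Het. The 3 libraries with the highest striatal means also have the 3 highest values of Pdyn and of Penk. For Pnoc the Het libraries lie below the WT libraries at 61.0 to 65.5 CPM. Where the striatal means overlap, 4.78 to 4.85, the only WT library is replicate 11, which is 1 of the 2 in doubt.

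**Figure D4:**
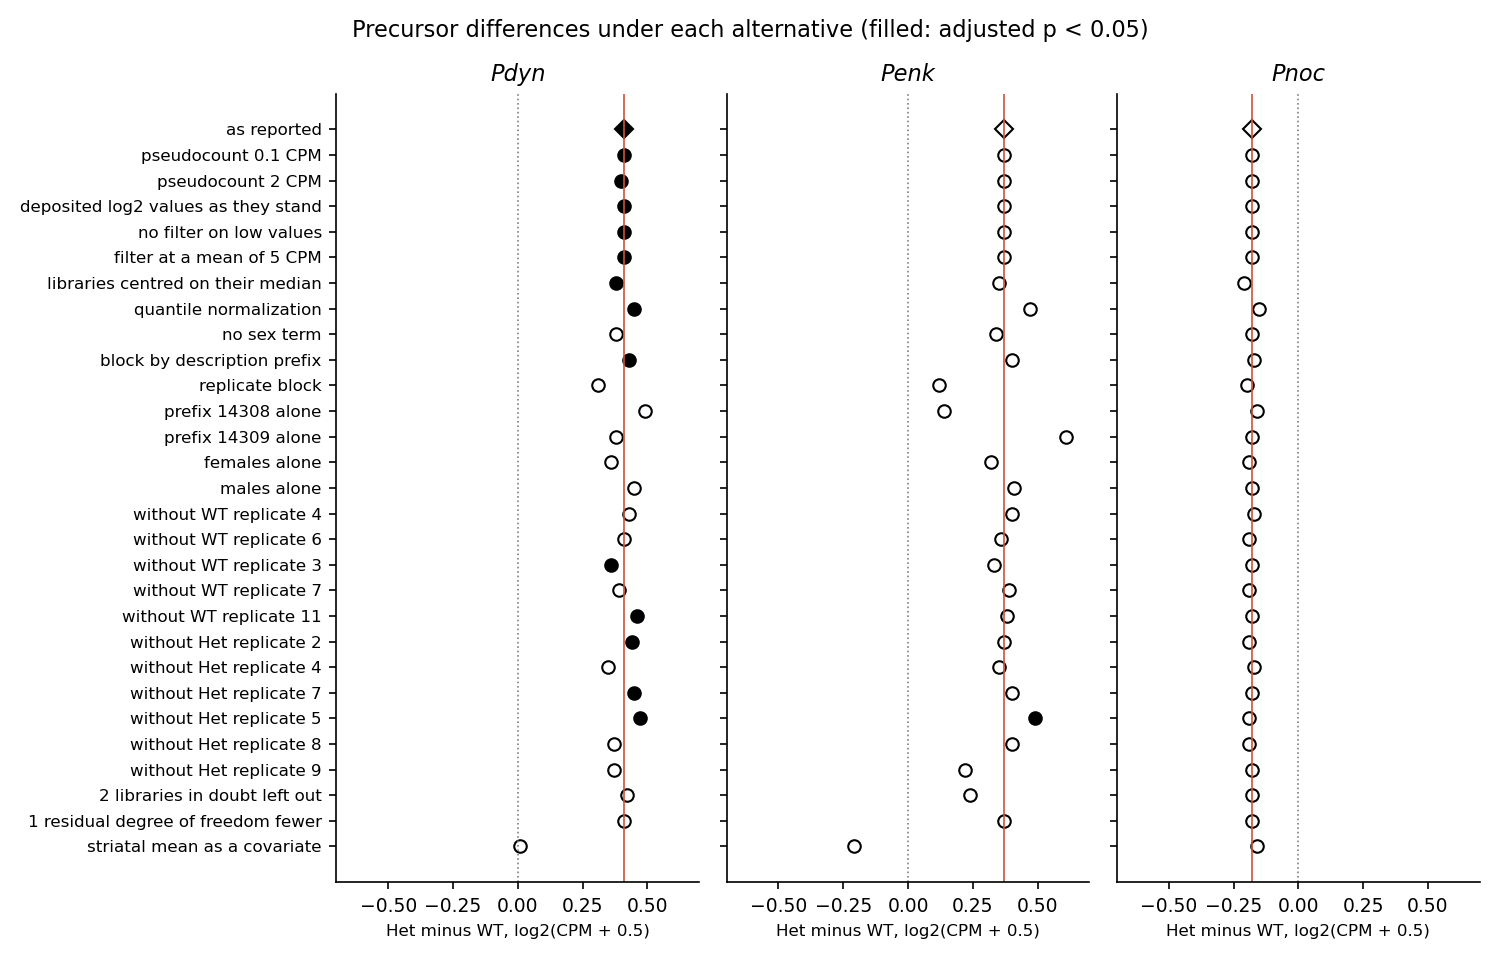
Het minus WT difference of the 3 precursors, in log2(CPM + 0.5), as reported (diamond, red line) and under each alternative (circles); filled symbols passed an adjusted p of 0.05. Pnoc stays between -0.21 and -0.15, Pdyn between 0.31 and 0.49 and Penk between 0.12 and 0.61, except that Pdyn is at 0.01 and Penk at -0.21 with the striatal mean as a covariate.

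Among 12 hypothalamic markers 4 fell (Avp, Hcrt, Oxt and Pmch), beside 1.14% of all genes tested, and the median of the list was -0.29. The count was 3 without the 2 libraries in doubt, 2 with quantile normalization, and 0 without the sex term or with the replicate block. Pmch passed in 2 of 11 runs with 1 library left out. Of 5 thalamic and habenular markers past the filter, Tcf7l2 rose (0.39) and 4 did not pass. Of 3 markers of oligodendrocyte precursors, Gpr17 rose (0.35), and of 5 meningeal fibroblast markers, Dcn fell (-0.36). With 1 library left out, Tcf7l2 passed in 6, Gpr17 in 1 and Dcn in 5 of 11 runs, and none of the 3 passed without the 2 libraries in doubt. None passed among 6 cortical and hippocampal, 5 astrocyte, 5 oligodendrocyte, 4 microglial and 3 endothelial markers. Of the pituitary list, Cga was past the filter and did not pass (-0.56), Fshb and Tshb were under it, and the other 5 genes were not analysed here. The part of these lists in the values of the opioid genes was not tested.

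The genes related to the opioid system showed no shared direction. Of 50 tested genes in 8 lists, 1 rose, 4 fell and 45 did not pass. Those that fell include Avp and Hcrt, which are also counted among the hypothalamic markers that fell, so the counts are not separate results. Over all genes tested, 2.30% rose and 1.14% fell, and the shares were not compared by a test. The median difference of the 50 genes was -0.01, beside -0.02 over all genes. The number that passed, 5 in all, was 3 without the 2 libraries in doubt, and it was also 3 when any of WT replicates 6 and 7 and Het replicates 2, 8 and 9 was left out. Of the genes for peptides that dynorphin neurons of the hypothalamus also make, Avp (vasopressin) fell from a WT mean of 466 ± 87.1 CPM to a Het mean of 320.2 ± 106 CPM, and Hcrt (orexin) from 1233 ± 212 to 967 ± 142 CPM (SD, n = 5 and 6). Pdyn, which is made in the same neuron types, was higher in Het. Tac2, which encodes neurokinin B, had -0.14 and did not pass. Pomc, the precursor of beta-endorphin, was at 82.2 ± 19.3 CPM in WT and 70.1 ± 16.4 CPM in Het, a log2 difference of -0.27 that did not pass (limma adjusted p = 0.206). Ogfr, which binds met-enkephalin outside the classical receptor family, had -0.21 and did not pass. Pomc had -0.14 and Ogfr -0.10 when the 2 libraries in doubt were left out.

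Of 6 processing genes, 5 had a negative difference and 1 fell, beside 6983 negative and 150 called lower of all 13184 genes tested. These shares were not compared by a test. Ctsl, which encodes the protease cathepsin L, was at 267 ± 15.7 CPM in WT and 230.2 ± 9.23 CPM in Het, with all Het values below all WT values (log2 difference -0.22, SE 0.052, limma adjusted p = 0.0340). The call of Ctsl was lost in 7 of 11 runs with 1 library left out and in 17 of 28 alternatives in all. Cpe, the carboxypeptidase that trims basic residues from cut peptides, had -0.23 and missed the threshold (limma adjusted p = 0.0513). None of the 7 peptidase genes of peptide breakdown passed, and the differences with the smallest p-values were those of Ece1 (0.25) and Npepps (0.11).

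Downstream of the receptors, 1 of 9 effector genes past the filter rose and the other 8 did not pass. The riser was Adcy5, an adenylyl cyclase inhibited through opioid receptors and abundant in striatal neurons, which went from 28.0 ± 3.37 CPM in WT to 43.5 ± 8.39 CPM in Het (log2 difference 0.63, SE 0.12, limma adjusted p = 0.0123), with all Het values above all WT values. Adcy1, a calcium-stimulated cyclase, had 0.40 and did not pass. None of 4 inhibitory G protein genes passed, with 0.19 for Gnao1 (limma adjusted p = 0.0680) and -0.08 for Gnai2. Of 12 genes of receptor desensitization, trafficking and RGS proteins, Rtp4, a chaperone that helps opioid receptors to the cell surface and is also induced by interferon, fell from 9.08 to 14.9 CPM in WT to 6.58 to 10.6 CPM in Het, with overlap (log2 difference -0.53, limma adjusted p = 0.0420). The call of Rtp4 was lost in 9 of 11 runs with 1 library left out and in 19 of 28 alternatives in all. Grk5, a receptor kinase, had 0.56 with all Het values above all WT values and missed the threshold (limma adjusted p = 0.0513). None of 6 genes for transcription factors of the precursors passed, with 0.18 for Creb1 and 0.36 for Fosb.

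**Figure D5:**
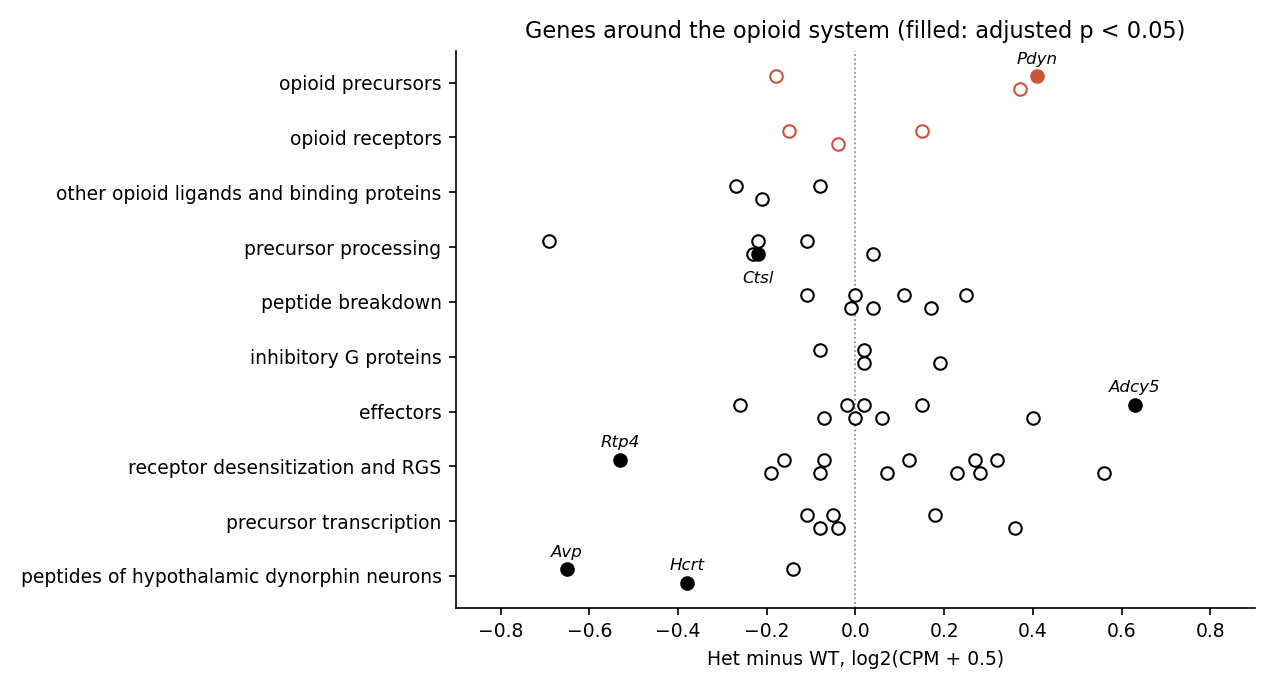
Het minus WT difference, in log2(CPM + 0.5), of each tested gene in the opioid precursor and receptor groups (red) and in 8 lists of related genes (black); filled, named points passed an adjusted p of 0.05. Pdyn and Adcy5 lie to the right of 0 and Ctsl, Rtp4, Avp and Hcrt to the left, and the rest are open.

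The genes whose profile over the 11 libraries was most like that of each member were listed as a description, by Pearson's r of log2(CPM + 0.5) and without a test. For Pdyn they were Mctp1 (r 0.95), Atg4c (0.95) and Gng7 (0.94), the last of which is on the striatal list. For Penk they were Cacng3 (r 0.98), Ndrg4 (0.94) and Rarb (0.94), and Rarb is on that list as well. For Pnoc they were Tm2d1 (r 0.97), Phyh (0.95) and Ppa1 (0.94), all 3 lower in Het by 0.21 to 0.31 on the log2 scale. For the receptors the closest profiles were those of Pot1a for Oprm1 (r 0.94), Wrb for Oprk1 (0.96) and Pecr for Oprl1 (0.94). These values are the highest among the 13184 genes tested, less those named Gm with a number or ending in Rik. They come from few libraries, and the libraries share the correction made by the authors.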

How the data were processed

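The deposited table holds log2 CPM values with a small constant added, after a correction that its name gives as RUVr (removal of unwanted variation estimated from residuals). Per the submitters' processing notes, Trimmomatic, Bowtie2, STAR and HTSeq were used with genome build mm10. Their versions and settings are not given in the sources used. Per the labels' protocols, a Zymo kit served for extraction and a SMARTer Ultra Low kit for the libraries. The planned analysis assumed linear CPM. CPM were therefore recovered by back-transforming and subtracting each library's lowest value, after which all values were whole multiples of 1 step per library within a tolerance of 0.02. The counts behind them are corrected ones, so raw depth is unknown and no counting interval is given. The number of factors removed is unknown too, and adjusted p-values that treat the corrected values as raw are too small.

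Genes with a mean of at least 1 CPM were tested, 13184 of 14864, as log2(CPM + 0.5) with limma 3.58.1 in R 4.3.3 (eBayes with trend). The model had terms for genotype and for sex, plus their product for the interaction. Two-sided p-values were adjusted over all genes tested (Benjamini-Hochberg) and read at a threshold of 0.05. A fold change on this scale understates changes of low genes. Relations across libraries used residuals from the means of the 4 groups of genotype and sex, with two-sided exact permutations within those groups. The method was tested on simulated data. Positions, exon lengths and sequences came from GENCODE M21, which held 14856 of the table's genes.

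The members, the 8 related gene lists, the 13 marker lists and the tests were chosen with earlier results of these data known. Named genes were the members, every list gene past the threshold or, with fewer than 2 of these, the 2 with the smallest p-values of a list, and the 3 most like profiles of each member, of which the first is printed for the receptors. Tac2 and Pcsk1n were named after their values were seen, as were Sim1 and Otp as examples of detected markers. Tac1, Isl1, Gpr6 and Sp9 were named to complete the D1 and D2 lists. The lists' genes Gnai3 and Kiss1 are not analysed here, nor is Pou4f1.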

Additional observations from a re-analysis of the deposited data

Results flagged for a closer look

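Within each genotype, the highest or lowest library stood apart from the others by Dixon's ratio (the gap to the nearest library over the whole range) in 4 of 16 groups looked at, those of the 7 opioid genes and Myt1l in WT and in Het. Chance flags about 1 in 20 such groups. The library labelled Het replicate 9 had 2423 CPM of Penk, with the other Het libraries at 1136 to 1464, and it also had 130.0 CPM of Myt1l, with the others at 58.7 to 75.9. WT replicate 4 had 75.1 CPM of Pnoc, with the other WT libraries at 69.6 to 71.0. WT replicate 6 had 0.462 CPM of Oprd1, with the others at 0.167 to 0.252, all on few counts.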

How the results depend on the processing

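Of 28 alternatives, Pdyn kept its call in 13. Its difference stayed above 0 in all, but at 0.01 with the striatal covariate its direction was not resolved (limma adjusted p = 0.968). The count of opioid genes called, 1 as reported, was 0 without the sex term, with the replicate block, within prefix 14308 or 14309, in females or males alone, without the 2 libraries in doubt, with 1 residual degree of freedom fewer and with the striatal covariate, and 0 to 2 when 1 library was left out. The count over all genes, 453 as reported, was 200 without the sex term, 300 with a block by prefix, 46 with the replicate block, 6 within prefix 14308, 16 within prefix 14309, 0 in females alone, 1 in males alone, 229 without the 2 libraries in doubt, 189 with 1 residual degree of freedom fewer, 3 with the striatal covariate and 140 to 820 when 1 library was left out. Centring libraries on their median changed 303 higher and 150 lower to 233 and 243. The count between the sexes, 26, was 17 without the 2 libraries in doubt, 11 with 1 residual degree of freedom fewer and 10 to 62 when 1 library was left out.

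Differences that turned their direction, none of them called in either state except Adora2a, were as follows. With the striatal covariate, Penk was at -0.21, Oprm1 at 0.33, Oprl1 at 0.20, Tac2 at 0.01 and Adora2a at -0.10. Within prefix 14308, Oprm1 was at 0.12, Oprk1 at -0.06, Oprl1 at 0.06 and Creb1 at -0.02. Oprm1 was at 0.02 in males alone, Gnai2 at 0.14 and Eya1 at 0.07 in females alone, and Oprl1 at 0.0005 without Het replicate 4 and 0.01 without Het replicate 9, in a range of -0.08 to 0.01 over libraries left out. The cause was not tested.

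The genotypes share 2 replicate numbers, 4 and 7, which join different prefixes. Libraries with these numbers had a correlation of 0.13 and -0.09 of their deviations across genes, after the correction made by the authors. The labels do not say whether they share more than a number, and 2 such values cannot settle it. The replicate block rests on those pairs, with the sex term left out for lack of residual degrees of freedom. Number 7 joins a WT male and a Het female, so its difference mixes sex with genotype. The block gave 0.31 for Pdyn, -0.0023 for Oprk1, 0.03 for Ogfr and 0.43 for Gnai2.

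Of the pathway genes named as changed, Adcy5, Avp and Hcrt passed whichever library was left out. Oprm1 and Oprd1 rest on the fewest corrected counts of the 7 genes, 7 to 44 and 1 to 16.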

Other observations

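Pcsk1n, which encodes proSAAS, an inhibitor of the convertase that cuts opioid precursors, varied more between libraries than the other processing genes. It was at 53.9 to 312 CPM in WT and 49.6 to 362 CPM in Het. In each genotype the highest library was female, WT replicate 6 and Het replicate 4. The other females were at 67.9 to 115 CPM. The log2 difference of females minus males was 1.19 (SE 0.36) and did not pass the test (limma adjusted p = 0.214). Its log2 difference between the genotypes was -0.69 (SE 0.36) and did not pass the test (limma adjusted p = 0.274). The convertase genes Pcsk1 and Pcsk2 were at 30.1 to 41.6 and 106 to 123 CPM over the same libraries.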
